A study of Homo sapiens with 8 samples.

Results

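Human embryonic stem cells (hESCs) held for 24 h with an antibody that blocks MFGE-8 were compared with hESCs held with it for 12 h, in 4 of the 8 RNA sequencing libraries of the series. The cells were of the line BG01 and were grown without feeder cells on Matrigel in mTeSR1 medium. They received 5 µg/mL of anti-M8nAb, a mouse antibody that neutralizes MFGE-8, and each time had 2 libraries. The other 4 libraries came from BG01 cells given 5 µg/mL of normal mouse IgG for 12 or 24 h, 2 at each time, and show what changed over the same interval without the block. All groups thus share the line, the medium and a mouse antibody, and the line stands for a single hESC genotype. The labels call the libraries biological replicates without naming separate cultures, so p-values measure the spread among these libraries. Each library is a sample of its own, and no cells were followed from 12 to 24 h.

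MFGE-8 is a secreted glycoprotein that bridges phosphatidylserine on membranes, such as those of extracellular vesicles and dying cells, to integrins that recognize an RGD motif on the receiving cell. hESCs keep dividing with a short G1 phase while a small circuit of transcription factors led by OCT4 (POU5F1), SOX2 and NANOG holds them in the undifferentiated state. They attach to matrix through integrins, whose signals pass through focal adhesions, actin and the kinases FAK, AKT and ERK.

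Each library held 21010400 to 21792716 counts over genes, and values are given as CPM, a gene's share of its library's counts scaled to a fixed total, after TMM scaling, a correction that sets the libraries to a common size through the genes that move least. CPM is not corrected for gene length, so levels are compared only within a gene. The 8 markers of hESCs, POU5F1, NANOG, SOX2, LIN28A, DPPA4, TDGF1, DNMT3B and L1TD1, were each above 1 CPM, and their summed level was 7770 to 7813 CPM at 12 h and 6432 to 6615 CPM at 24 h with anti-M8nAb, against 6870 to 7030 and 6020 to 6058 CPM with IgG. Markers of other cells were partly present: by its mean over the 8 libraries, 1 CPM was reached by 1 of 8 trophoblast, 3 of 6 amnion, 2 of 9 mesendoderm, 3 of 6 neuroectoderm, 1 of 4 blood and 3 of 4 endothelial markers. With anti-M8nAb at 12 and then 24 h the trophoblast markers summed to 16.8 to 16.9 and 19.2 to 19.9 CPM. Those of amnion summed to 52.7 to 55 and 43.6 to 47.6 CPM, and those of blood to 17.4 to 19.4 and 19.3 to 21.2 CPM, most of each from KRT7, BAMBI and CD74. Endothelial markers summed to 69.78 to 72.15 and 72.78 to 75.45 CPM, against 81.93 to 85.46 and 91.53 to 93.7 CPM with IgG. Of these CDH5 went from 0.589 and 0.386 CPM to 2.53 and 2.68 CPM with anti-M8nAb. With IgG it went from 0.553 and 0.322 CPM to 0.933 and 0.837 CPM. The means of TEK and PECAM1 were lower at 24 h with anti-M8nAb. The mesendoderm sum went from 6.28 to 8.01 CPM at 12 h to 11.8 to 13.3 CPM at 24 h, with CER1 at 3.14 and 3.09 and then 8.28 and 10.6 CPM, against 3.46 to 4.74 and 5.95 to 7.02 CPM for the sum with IgG. FOXA2, the other mesendoderm marker at 1 CPM, went down with anti-M8nAb, from 2.31 and 2.94 CPM to 0.633 and 0.731 CPM. The neuroectoderm sum was 6.92 to 8.20 CPM at 12 h and 3.61 to 4.53 CPM at 24 h with anti-M8nAb. With IgG that sum was 4.01 to 6.44 CPM at 12 h and 3.79 to 4.57 CPM at 24 h. GATA3 was at 1.06 to 1.90 CPM in the anti-M8nAb libraries and at 0.0461 to 0.308 CPM in those with IgG, and CGA, VGLL1, TFAP2B and HBG1 were at 0 in all 8. The 8 fibroblast markers summed to 570.8 to 608.4 CPM at 12 h and 707.3 to 731.7 CPM at 24 h with anti-M8nAb, and to 529.1 to 529.5 and 608.2 to 629.5 CPM with IgG. At 12 and then 24 h of anti-M8nAb the mean of THY1 was 461 and 550.1 CPM, that of COL1A1 63.5 and 83.0 CPM and that of PDGFRB 29.9 and 54.7 CPM, while COL1A2 gave 33.9 and 31.2 CPM, COL3A1 stayed under 1 CPM and DCN, LUM and FAP were at 0 at 24 h. In bulk RNA, a smaller share of cells with a transcript and less of it in each cell cannot be told apart. The second anti-M8nAb library at 12 h stood apart in its pseudogenes, counted here with processed, unprocessed and transcribed kinds together. They held 5406 CPM against 3676 CPM in its replicate and 2745 to 3018 CPM in the other 6 libraries. Results that rest on this library are given with and without it.

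Between 12 and 24 h of anti-M8nAb, 3254 of the 20165 genes tested rose (16.1%) and 3170 fell (15.7%) at an adjusted p under 0.05 in edgeR's quasi-likelihood F test. A change of at least 2-fold was seen in 703 genes that rose (3.49%) and 483 that fell (2.4%). Of those that fell, 151 were processed pseudogenes, a class of 801 tested genes that was highest in the second anti-M8nAb library at 12 h. Over the same interval with IgG, 1414 genes rose (7.01%) and 1339 fell (6.64%). The median size of a gene's log2 change, the logarithm of its fitted fold from 12 to 24 h, was 0.261 with anti-M8nAb and 0.178 with IgG. Of the genes that rose with anti-M8nAb, 762 also rose with IgG, which is 23.4% of the former and 53.9% of the latter, and 687 fell in both, 21.7% and 51.3%. The shares of all genes that rose and fell are the background against which the counts of the gene lists are given. A separate contrast tested the difference between the courses. It was called in favour of anti-M8nAb for 1167 genes (5.79%) and in favour of IgG for 1319 (6.54%), among them 956 of the genes that rose and 1107 of those that fell with the block. The IgG counts leaned on single libraries, with 698 up and 565 down without the first IgG library at 12 h, 552 and 376 without the second, and 852 and 667 without the second at 24 h. The difference was called for 625 and 827 genes without the first IgG library at 12 h and was in favour of anti-M8nAb for 651 without the second. With 2 libraries against 2, an exact permutation test of any single gene cannot go below p = 0.333, so calls rest on the spread that the fit shares across genes.

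**Figure D1:**
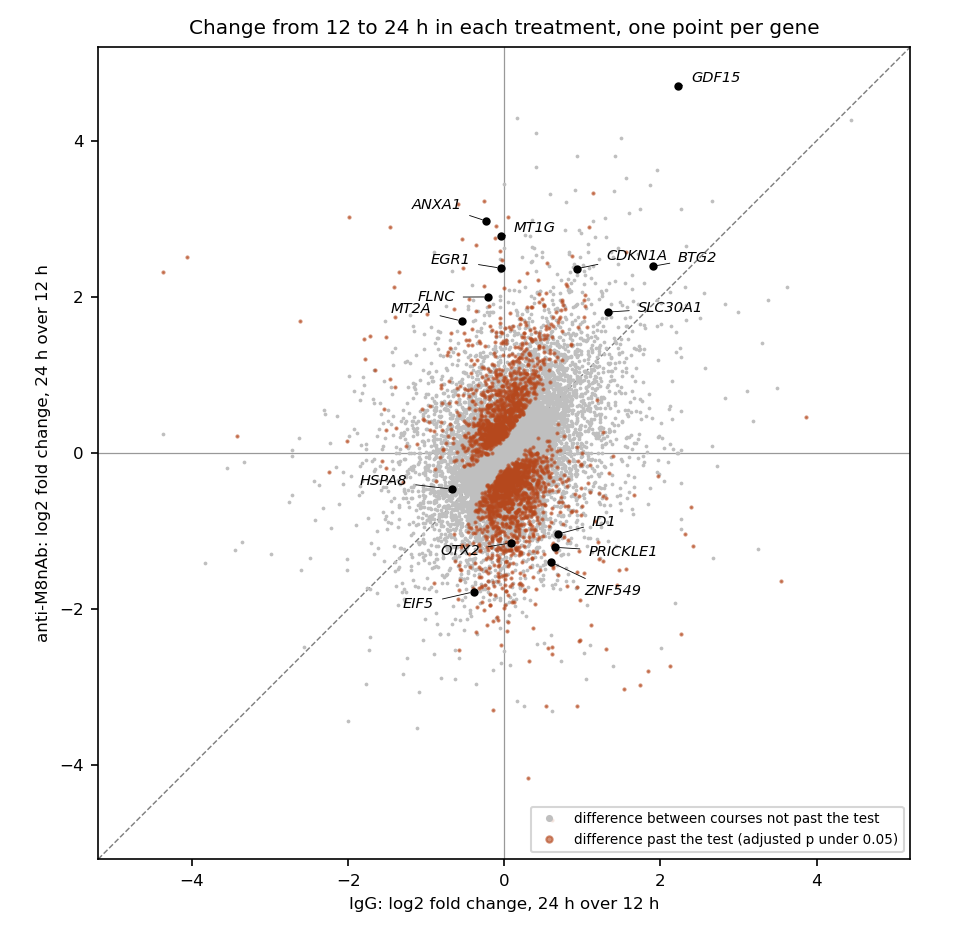
Each point is a gene, with its log2 change from 12 to 24 h with IgG on the horizontal axis and with anti-M8nAb on the vertical axis; 20159 of 20165 genes are drawn, 6 lie outside the axes, and coloured points are genes whose courses differed in the test. MT1G and EGR1 lie near 0 on the IgG axis and above 2 on the other, BTG2 and SLC30A1 moved up in both treatments, and ID1, PRICKLE1 and ZNF549 lie where IgG rose and anti-M8nAb fell.

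The metallothioneins, small cysteine-rich proteins that bind zinc and copper, rose together. The promoters of MT2A, MT1X and MT1H, on chromosome 16, are shown because these neighbouring genes moved as a group. Each is the 200 bases before the RefSeq start in GRCh38.p14, on the plus strand. Capitals mark every match, on either strand, to TGCNCNC, where N is any base. That loose pattern stands here for the core of the metal response element. MTF1, the zinc-sensing factor, is known to bind that element.
MT2A, chr16:56608384-56608583: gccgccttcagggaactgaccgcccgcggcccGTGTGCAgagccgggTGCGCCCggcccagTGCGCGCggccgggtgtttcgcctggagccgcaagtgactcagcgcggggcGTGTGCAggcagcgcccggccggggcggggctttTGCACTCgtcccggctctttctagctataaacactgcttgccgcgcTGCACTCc
MT1X, chr16:56682270-56682469: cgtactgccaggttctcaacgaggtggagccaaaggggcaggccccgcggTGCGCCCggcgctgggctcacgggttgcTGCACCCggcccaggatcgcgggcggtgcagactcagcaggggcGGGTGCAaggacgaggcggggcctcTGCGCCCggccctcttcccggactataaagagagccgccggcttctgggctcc
MT1H, chr16:56669614-56669813: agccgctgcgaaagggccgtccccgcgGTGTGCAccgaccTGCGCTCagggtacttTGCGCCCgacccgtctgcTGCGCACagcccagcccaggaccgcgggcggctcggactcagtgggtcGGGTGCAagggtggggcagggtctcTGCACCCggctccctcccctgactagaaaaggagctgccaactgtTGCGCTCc
The windows hold 6, 4 and 7 matches. Of 27305 promoters cut in the same way, 42.2% hold at least 1 match to this pattern and 3.67% hold 3 or more. A single match to it is thus common and several are not. Of the 10 genes of the metal list that were tested, 5 have a promoter in the table used. The other 2 of these 5 are SLC30A1, with 1 match, and MTF1, with 0.

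MT1G (ENSG00000125144.14, chromosome 16, 56666730 to 56668065 in GRCh38) stood at 33.8 and 31.4 CPM at 12 h and 192 and 254 CPM at 24 h with anti-M8nAb, a 6.85-fold change (log2 change 2.78, SE 0.09, adjusted p = 4.82e-28). With IgG it stood at 14.3 and 14.2 CPM at 12 h and 14.8 and 13 CPM at 24 h, a log2 change of -0.04 (adjusted p = 0.881). Both blocked libraries at 24 h were thus far above the other 6, and the blocked libraries at 12 h already lay above all IgG libraries. MT1X was at 42.4 and 38.6 CPM at 12 h and 198 and 252 CPM at 24 h, with a log2 change of 2.47 (SE 0.09, adjusted p = 1.29e-26), and was level with IgG (26.9 and 21.6 CPM at 12 h and 23.6 and 24.1 CPM at 24 h). MT2A went the other way with IgG. It rose with anti-M8nAb, from 28.4 and 31.7 CPM at 12 h to 84.7 and 109 CPM at 24 h (log2 change 1.69, SE 0.10, adjusted p = 6.54e-19), and fell with IgG, from 17 and 18.6 CPM at 12 h to 12.2 and 12.2 CPM at 24 h (log2 change -0.54, adjusted p = 0.00108). In each of these genes the 2 blocked libraries at 24 h lay above the other 6, with replicate 2 the higher of the pair.

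The further copies followed. MT1H was at 10.7 and 6.32 CPM at 12 h and 66 and 93.1 CPM at 24 h (log2 change 3.23, adjusted p = 1.4e-22), MT1E rose by 3.02 on the log2 scale (adjusted p = 1.31e-24) and MT1F by 1.40 (adjusted p = 3.44e-11). MT1M and MT1A, named here to complete the family, passed as well, MT1M with a rise of 1.35 (adjusted p = 0.000186) and MT1A at under 1 CPM in every library (adjusted p = 0.0252). The call of MT1A ended without any 1 of 5 libraries, at an adjusted p of 0.0514 to 0.268, the highest without the second anti-M8nAb library at 12 h. SLC30A1, the plasma membrane exporter of zinc, was at 51.5 and 48.6 CPM at 12 h and 156 and 193 CPM at 24 h with anti-M8nAb and at 31.5 and 32.3 CPM at 12 h and 81 and 79.9 CPM at 24 h with IgG. It rose in both courses (log2 changes 1.81 and 1.33, adjusted p = 1.03e-23 and 1.08e-16). MTF1 itself fell by 0.62 (adjusted p = 0.000104), from 19.2 and 21.5 CPM at 12 h to 13.3 and 13.3 CPM at 24 h. In all, 9 of the 10 metal genes tested rose, MTF1 fell, and the median log2 change was 2.14, against 0.003 over all genes tested and -0.04 for the same list with IgG. Metallothionein genes resemble each other closely, and how reads were shared among the copies is uncertain.

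Transcription factors of the AP-1 family, dimers of Fos, Jun and ATF proteins that answer stress and growth signals, were also higher at 24 h. JUN (ENSG00000177606.9, chromosome 1, 58776845 to 58784048) was at 42.3 and 42.7 CPM at 12 h and 122 and 130.3 CPM at 24 h with anti-M8nAb (log2 change 1.57, SE 0.08, adjusted p = 5.06e-21) and at 9.45 and 9.2 CPM at 12 h and 8.57 and 8.11 CPM at 24 h with IgG. The 2 blocked libraries at 12 h were already well above every IgG library, and those at 24 h were higher again without overlap. FOSL2 was at 4.37 and 4.77 CPM at 12 h and 16.9 and 16.7 CPM at 24 h (log2 change 1.88, adjusted p = 1.12e-11), and FOS, the best known partner of JUN, at 2.8 and 2.7 CPM at 12 h and 8.42 and 7.21 CPM at 24 h (log2 change 1.51, adjusted p = 1.51e-07). JUND and ATF3 rose, with log2 changes of 1.01 and 1.03 (adjusted p = 3.22e-14 and 9.33e-14). CREB5, a relative that binds DNA with Jun, went from a low level, 1.67 and 2.75 CPM at 12 h and 17.1 and 14.1 CPM at 24 h (log2 change 2.82, adjusted p = 6.02e-13). Of the 20 factors tested, 15 rose and 1 fell with anti-M8nAb, with a median log2 change of 1.13, and 3 rose and 1 fell with IgG. For 10 of them the difference was called in favour of the block, and for none in favour of IgG.

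Immediate-early genes, which switch on without new protein synthesis, rose in both treatments, and some of them further with the block. EGR1, a zinc finger factor downstream of ERK and SRF, was at 11.3 and 9.36 CPM at 12 h and 48.2 and 58.3 CPM at 24 h with anti-M8nAb and at 7.46 and 7.45 CPM at 12 h and 7.59 and 6.92 CPM at 24 h with IgG. Its log2 changes were 2.37 (SE 0.12, adjusted p = 1.21e-20) and -0.04 (adjusted p = 0.903). BTG2, an antiproliferative gene, rose in both, by 2.39 and 1.91 on the log2 scale, and its courses were not told apart (difference 0.48, adjusted p = 0.168). The same was true of IER2, a nuclear protein, with 0.43 and 0.37 (difference 0.05, adjusted p = 0.753; 52.2% of its exons overlap a gene on the other strand). NR4A1, an orphan nuclear receptor, rose by 1.37 with anti-M8nAb and 0.45 with IgG, and its courses differed (adjusted p = 3.06e-06; overlap 10.3%). The sources used here do not give whether counting used strand, so a gene with such an overlap, given here from 10% of exon sequence, may carry the other gene's reads. Of 25 such genes tested, 15 rose and 1 fell with anti-M8nAb and 12 rose with IgG. For 9 of them the difference favoured the block and for 1 IgG. Inhibitors that ERK signalling induces against itself were less uniform, with 11 of 22 up and 2 down with anti-M8nAb, 9 up and 2 down with IgG, and the difference called for 4 in favour of the block and 3 in favour of IgG. DUSP8, a phosphatase of MAP kinases, rose from 2.06 and 1.5 CPM at 12 h to 9.2 and 8.48 CPM at 24 h (log2 change 2.31, adjusted p = 1.95e-08), and DUSP6, the ERK phosphatase, by 0.24 (adjusted p = 8.87e-05; overlap 28.6%). SPRY4, a Sprouty inhibitor, rose with IgG alone among the tests (0.30, adjusted p = 0.000135), while its log2 change with anti-M8nAb was 0.03 (adjusted p = 0.72) and the courses differed (adjusted p = 0.0162). Without the second anti-M8nAb library at 24 h, 7 of these inhibitors passed as higher.

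**Figure D2:**
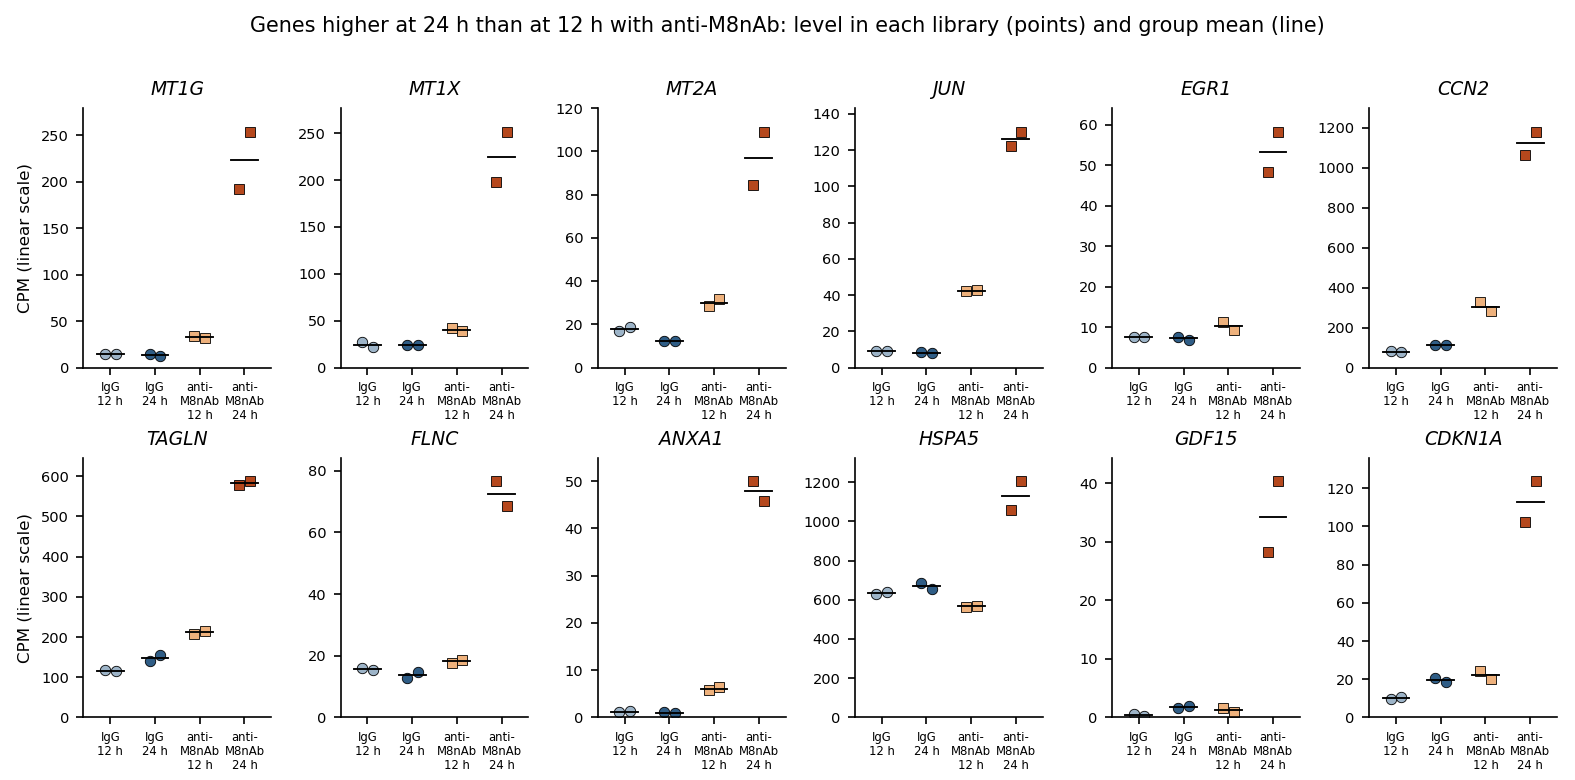
The level of 12 genes is plotted in CPM on linear axes that start at 0, with 1 point per library and a line at the mean of the 2 libraries of each group. In every panel both anti-M8nAb libraries at 24 h lie above the other 6 libraries; HSPA5 is the gene in which the anti-M8nAb libraries at 12 h lie below all IgG libraries.

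Targets of the coactivators YAP and TAZ rose in both treatments. CCN2, a matricellular growth factor (ENSG00000118523.6, chromosome 6, 131948176 to 131951372), stood at 326 and 282 CPM at 12 h and 1063 and 1180 CPM at 24 h with anti-M8nAb and at 81.5 and 76.3 CPM at 12 h and 111 and 114 CPM at 24 h with IgG. It rose in both courses, by 1.88 (SE 0.06, adjusted p = 1.17e-28) and 0.51 (adjusted p = 1.02e-07) on the log2 scale, and further with the block (adjusted p for the difference = 6.49e-17). Both blocked libraries at 12 h were above all IgG libraries, and LINC01013, on the opposite strand, shares 11.9% of its exon sequence. Its relative CCN1 was at 145 and 142 CPM at 12 h and 407 and 458 CPM at 24 h (log2 change 1.59, adjusted p = 2.01e-25). ANKRD1, a nuclear cofactor that YAP also induces, went from 1.77 and 1.45 CPM at 12 h to 13.7 and 15.6 CPM at 24 h (log2 change 3.18, adjusted p = 1.97e-14) and stayed under 0.5 CPM in all IgG libraries. AMOTL2, an inhibitor of YAP that YAP induces, rose further with IgG (1.18) than with the block (0.68), and that difference was called (adjusted p = 2.47e-05). Its level was nonetheless higher with the block at both times. It was at 123 and 127 CPM at 12 h and 203 and 197 CPM at 24 h with anti-M8nAb. With IgG it was at 61.3 and 60.3 CPM at 12 h and 135 and 141 CPM at 24 h. YAP1 fell slightly in both, by 0.16 (adjusted p = 0.027) and 0.29 (adjusted p = 0.000397), with an overlap of 10.1%. The fall of YAP1 with the block did not pass without the first or the second anti-M8nAb library at 12 h (adjusted p = 0.084 and 0.104) or the second at 24 h (adjusted p = 0.221). Of 29 YAP and TAZ targets tested, 15 rose and 1 fell with anti-M8nAb and 11 rose and 2 fell with IgG. Their courses differed in favour of the block for 5 and of IgG for 2.

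Among 39 genes of the actin cytoskeleton and its regulators, 25 rose and 1 fell with anti-M8nAb (median log2 change 0.26), 9 rose with IgG (median 0.06), and the difference was called for 14 in favour of the block and for none in favour of IgG. TAGLN, an actin-binding protein of smooth muscle, was at 208 and 215 CPM at 12 h and 578 and 588 CPM at 24 h with anti-M8nAb (log2 change 1.46, SE 0.05, adjusted p = 6.19e-26). With IgG it was at 117 and 116 CPM at 12 h and 141 and 155 CPM at 24 h, a rise of 0.35, and 34.1% of its exons overlap PCSK7. FLNC, a filamin that crosslinks actin, was at 17.8 and 18.5 CPM at 12 h and 76.6 and 68.5 CPM at 24 h with anti-M8nAb (log2 change 2.00, adjusted p = 3.49e-21) and at 16.2 and 15.4 CPM at 12 h and 12.8 and 14.6 CPM at 24 h with IgG. These FLNC values put the 24 h blocked libraries far above the other 6, which lay close together. RHOB, a small GTPase of endosomes, rose by 1.72 (adjusted p = 5.2e-23), CNN1, calponin, by 1.65 (adjusted p = 2.65e-17) and VCL, vinculin, by 0.53 (adjusted p = 2.64e-13; overlap 11.1%). ACTB, cytoplasmic beta-actin, moved by 0.25 (adjusted p = 6.6e-07) from 3121 and 3110 CPM at 12 h to 3703 and 3717 CPM at 24 h, a small change that was still larger than the gap between its replicates.

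Mesenchymal genes rose as well, while the epithelial cadherin stayed level. VIM, the intermediate filament vimentin, was at 207 and 198 CPM at 12 h and 477 and 461 CPM at 24 h (log2 change 1.21, adjusted p = 2.22e-23; overlap 24.6% with VIM-AS1). THBS1, thrombospondin, rose by 1.15 (adjusted p = 7.64e-21) and FN1, fibronectin, by 0.30 (adjusted p = 0.00229). FN1 did not pass without the second anti-M8nAb library at 12 h (adjusted p = 0.0764) or the first at 24 h (adjusted p = 0.102). CDH1, E-cadherin, was at 257 and 233 CPM at 12 h and 240.3 and 229 CPM at 24 h, with no call (log2 change -0.06, adjusted p = 0.439), and its libraries at the 2 times overlapped. Of 52 genes of this list 27 rose and 1 fell with anti-M8nAb, against 16 and 2 with IgG, and 17 had a called difference in favour of the block. The summed fibroblast markers given above rose with the block and also with IgG. With the block THY1, COL1A1 and PDGFRB were higher in mean level at 24 h, and COL1A2, COL3A1, DCN and LUM were lower. The part of these markers in this result was not tested. Of 64 genes of the extracellular matrix and its remodelling 31 rose and 5 fell with anti-M8nAb and 27 rose and 1 fell with IgG. In 14 of them the difference favoured the block and in 5 IgG. Without the first anti-M8nAb library at 12 h or the second at 24 h, 1 of them passed as lower.

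Integrins and focal adhesion genes followed, with 21 of 39 up and 1 down, against 9 and 2 with IgG. Courses differed for 8, all in favour of the block. ITGA5, the alpha subunit of the fibronectin receptor, was at 16.1 and 15.5 CPM at 12 h and 44.9 and 44.3 CPM at 24 h (log2 change 1.50, adjusted p = 1.3e-16) and at 26 and 28.9 CPM at 12 h and 36.5 and 38.5 CPM at 24 h with IgG. Its blocked libraries were lowest of all at 12 h and highest at 24 h. ITGAV, the alpha subunit through which MFGE-8 binds cells, was at 64.2 and 67.2 CPM at 12 h and 88.2 and 89.1 CPM at 24 h (log2 change 0.43, adjusted p = 3.53e-06) and did not pass with IgG (0.01, adjusted p = 0.944). Its partner ITGB5 rose by 0.16 (adjusted p = 0.015) with anti-M8nAb and 0.20 (adjusted p = 0.00463) with IgG, but its call with the block ended without the first anti-M8nAb library at 12 h (adjusted p = 0.126) or either at 24 h (adjusted p = 0.07 and 0.0538). ITGB1, the beta subunit shared by matrix receptors, had a log2 change of -0.07 (adjusted p = 0.368). MFGE8 (ENSG00000140545.16, chromosome 15, 88898683 to 88913468), the target of the antibody, was at 944 and 903 CPM at 12 h and 929 and 935 CPM at 24 h (log2 change 0.01, SE 0.04, adjusted p = 0.846). These libraries overlapped between the times, so a change of MFGE8 mRNA within the course was not detected. The antibody acts on the protein, and the transcript does not check the block. AKT1 and GSK3B, kinases of the survival pathway below integrins, rose by 0.20 and 0.23 (adjusted p = 0.0164 and 0.00563), and for neither was a difference from IgG called (adjusted p = 0.913 and 0.0817). Without the second anti-M8nAb library at 12 h neither passed (adjusted p = 0.201 and 0.101), and AKT1 did not without the second at 24 h (adjusted p = 0.161). DNM1, the dynamin that pinches off endocytic vesicles, gave 0.05 (adjusted p = 0.725).

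Of 36 genes for phosphatidylserine handling and vesicles 15 rose and 1 fell, and 9 passed as higher without the second anti-M8nAb library at 24 h. ANXA1, an annexin that binds phosphatidylserine in the presence of calcium, led them at 5.84 and 6.37 CPM at 12 h and 49.99 and 45.8 CPM at 24 h (log2 change 2.97, SE 0.13, adjusted p = 1.43e-22). With IgG it stood at 1.06 and 1.38 CPM at 12 h and 1.11 and 0.969 CPM at 24 h, which put the 24 h blocked libraries far above all others. NPPB, the precursor of B-type natriuretic peptide, was at 1.86 and 2.03 CPM at 12 h and 16.2 and 15.5 CPM at 24 h (log2 change 3.02, adjusted p = 1.19e-14) and under 1 CPM in every IgG library. APLN, the ligand of the apelin receptor, was at 4.27 and 2.7 CPM at 12 h and 26.6 and 25.2 CPM at 24 h (log2 change 2.90, adjusted p = 3.3e-18) and GFRA1, a receptor subunit for GDNF, at 1.86 and 1.69 CPM at 12 h and 10.4 and 10.8 CPM at 24 h (log2 change 2.58, adjusted p = 4.69e-13). Both also rose with IgG, by 1.08 and 1.56.

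Chaperones and stress sensors of the endoplasmic reticulum (ER) rose. HSPA5 encodes BiP, the chief chaperone of the ER. Its promoter is shown because it holds a full ER stress response element, the site of ATF6 and NF-Y, which reads CCAAT, 9 bases of any kind and CCACG. It is the 200 bases before the RefSeq start in GRCh38.p14, minus strand, with the fixed bases of the element in capitals.
HSPA5, chr9:125241344-125241543: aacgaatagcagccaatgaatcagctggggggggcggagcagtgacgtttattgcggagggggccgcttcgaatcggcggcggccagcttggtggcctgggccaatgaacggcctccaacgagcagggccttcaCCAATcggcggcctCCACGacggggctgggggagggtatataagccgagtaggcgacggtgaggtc
The element was found, on either strand, in 18 of the 27305 promoters (0.0659%) and in 4 of the 40 promoters found for the 44 ER genes tested. Beside HSPA5 these were HSP90B1, PDIA6 and CRELD2, named here for that match, with log2 changes of 0.15 (adjusted p = 0.00689), 0.10 (adjusted p = 0.0833) and -0.05 (adjusted p = 0.741). HSP90B1 did not pass without the second anti-M8nAb library at 24 h (log2 change 0.08, adjusted p = 0.291).

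HSPA5 (ENSG00000044574.9, chromosome 9, 125234853 to 125241382) was at 565 and 566 CPM at 12 h and 1058 and 1204 CPM at 24 h with anti-M8nAb (log2 change 1.00, SE 0.05, adjusted p = 3.15e-21) and at 632 and 640.1 CPM at 12 h and 685 and 655 CPM at 24 h with IgG. The blocked libraries were the lowest at 12 h and the highest at 24 h, with the IgG libraries between them. HERPUD1, a factor of ER-associated degradation, was at 14 and 14.8 CPM at 12 h and 41.2 and 47.6 CPM at 24 h (log2 change 1.62, adjusted p = 8.3e-16) and also rose with IgG (0.94, adjusted p = 1.55e-07). DDIT3, the stress factor CHOP, was at 6.38 and 6.32 CPM at 12 h and 12.6 and 17.8 CPM at 24 h (log2 change 1.26, adjusted p = 2.38e-08), and 31.6% of its exons overlap MARS1. XBP1, the factor spliced by IRE1, rose by 0.35 with anti-M8nAb and 0.51 with IgG, and that pair of courses was not told apart (adjusted p = 0.298). Of the 44 genes, 22 rose and 2 fell with anti-M8nAb and 8 rose and 2 fell with IgG, with median log2 changes of 0.18 and 0.00. For 15 of them the difference was called in favour of the block and for none against it.

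Of 41 targets of ATF4, the factor that answers amino acid and ER stress, 17 rose and 5 fell with anti-M8nAb. The falls were not above the 15.7% of all genes. With IgG 6 of the 41 rose and 5 fell. The difference was called for 12 in favour of the block and 3 in favour of IgG. GDF15 (ENSG00000130513.7, chromosome 19, 18374731 to 18389176), a secreted stress cytokine, had the largest log2 change among protein-coding genes that met the rule for naming. It was at 1.67 and 0.965 CPM at 12 h and 28.2 and 40.3 CPM at 24 h with anti-M8nAb (log2 change 4.70, SE 0.22, adjusted p = 5.22e-22) and at 0.599 and 0.184 CPM at 12 h and 1.69 and 2.03 CPM at 24 h with IgG (log2 change 2.23, adjusted p = 6.79e-05). It rose in both courses from a very low level, and further with the block (adjusted p for the difference = 0.00202). STC2, a secreted glycoprotein, was at 22 and 17.2 CPM at 12 h and 68.4 and 67.5 CPM at 24 h (log2 change 1.79, adjusted p = 2.19e-19). CHAC1, which degrades glutathione, was at 4.47 and 4.15 CPM at 12 h and 17.2 and 16.8 CPM at 24 h (log2 change 1.98, adjusted p = 4.06e-14), and SESN2, a leucine sensor that restrains mTORC1, at 12 and 12.2 CPM at 12 h and 34.7 and 37.8 CPM at 24 h (log2 change 1.58, adjusted p = 5.71e-16). In STC2, CHAC1 and SESN2 the blocked libraries at 12 h were below all IgG libraries and those at 24 h above them. SLC7A11, the cystine transporter, rose with anti-M8nAb (0.67, adjusted p = 3.86e-08) and fell with IgG (-0.41, adjusted p = 0.0016). TRIB3, a pseudokinase that ATF4 induces, went the other way and fell, from 75.5 and 81 CPM at 12 h to 66.2 and 53.5 CPM at 24 h (log2 change -0.39, adjusted p = 0.000323). ATF4 mRNA itself rose by 0.16 (adjusted p = 0.011). Without the second anti-M8nAb library at 24 h neither TRIB3 nor ATF4 passed (adjusted p = 0.0628 and 0.0546), 3 targets passed as lower, and without the first at 12 h ATF4 did not pass (0.09, adjusted p = 0.28). Of 36 heat shock chaperones 5 rose and 7 fell with anti-M8nAb, near the shares of all genes (16.1% and 15.7%). Their median log2 change was -0.008, and -0.005 without the second anti-M8nAb library at 24 h. With IgG 1 of the 36 rose and 11 fell. The difference was called for 7 in favour of the block and 1 in favour of IgG. HSPA8, the constitutive HSP70, fell with anti-M8nAb (-0.46, adjusted p = 1.64e-12, overlap 11.4%) and with IgG (-0.67, adjusted p = 1.15e-16).

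Inhibitors of the cell cycle rose with the block and with IgG, with 15 of 30 up and 5 down with anti-M8nAb (3 down without the second anti-M8nAb library at 24 h) and 11 up and 2 down with IgG. The difference was called for 7 in favour of the block and 4 in favour of IgG. CDKN1A (ENSG00000124762.14, chromosome 6, 36676460 to 36687337), the inhibitor p21 of cyclin-dependent kinases, was at 24.1 and 19.97 CPM at 12 h and 102 and 124 CPM at 24 h with anti-M8nAb (log2 change 2.36, SE 0.10, adjusted p = 4.65e-24) and at 9.77 and 10.8 CPM at 12 h and 20.8 and 18.5 CPM at 24 h with IgG (log2 change 0.93, adjusted p = 1.95e-07). It rose in both, and further with the block (adjusted p for the difference = 2.17e-09). MDM2, a ubiquitin ligase, rose by 0.22 and 0.43 (adjusted p = 0.00457 and 5.53e-06; overlap 11.1%), with the block not past the threshold without the second anti-M8nAb library at 12 h (adjusted p = 0.103). WEE1, the kinase that holds cells in G2, was at 110.4 and 105 CPM at 12 h and 212 and 221 CPM at 24 h with anti-M8nAb (log2 change 1.01, adjusted p = 2.65e-18) and did not pass with IgG (-0.06, adjusted p = 0.557).

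**Figure D3:**
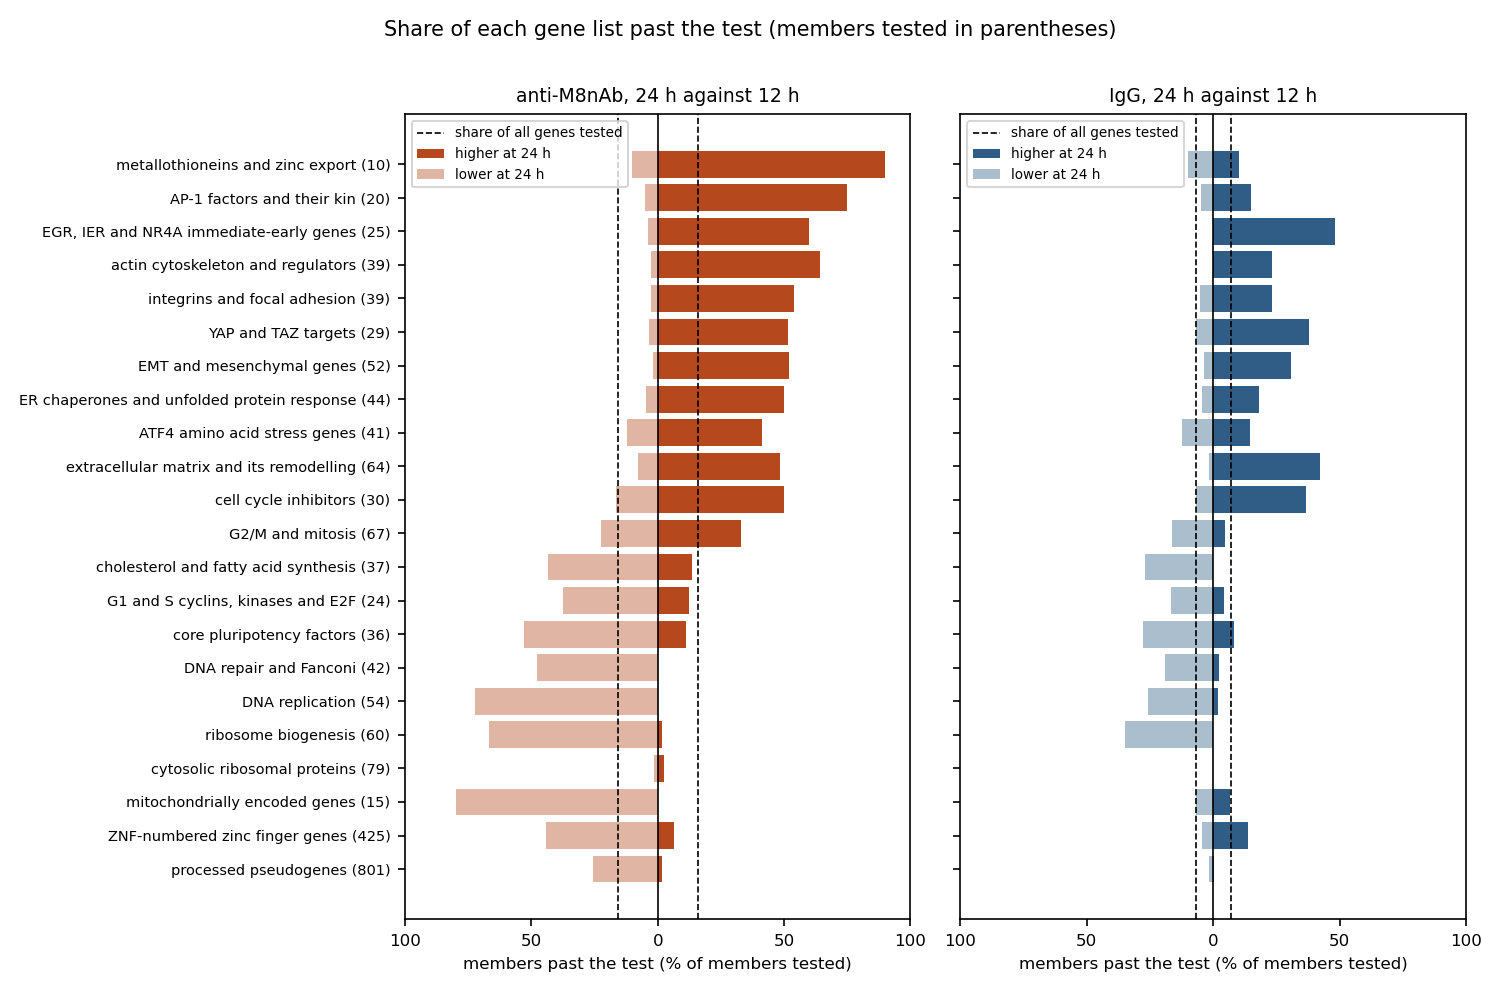
Bars give the percentage of the tested members of each gene list that rose (dark, to the right) or fell (pale, to the left) from 12 to 24 h with anti-M8nAb (left panel) and IgG (right panel); dashed lines mark the share of all genes tested that passed in that direction. With anti-M8nAb the metallothionein, AP-1 and actin lists reach furthest to the right and DNA replication, ribosome biogenesis and mitochondrial transcripts furthest to the left.

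DNA replication genes fell. MCM5, a subunit of the replicative helicase, was at 325 and 322 CPM at 12 h and 207 and 214 CPM at 24 h with anti-M8nAb (log2 change -0.62, SE 0.06, adjusted p = 2.45e-12) and at 286 and 296 CPM at 12 h and 246 and 283 CPM at 24 h with IgG. The 24 h blocked libraries were the lowest of the 8, and the fall with IgG did not pass (-0.14, adjusted p = 0.0921). RRM2, the subunit of ribonucleotide reductase that sets the supply of dNTPs, was at 188 and 187 CPM at 12 h and 111 and 113 CPM at 24 h (log2 change -0.74, adjusted p = 1.42e-14) and fell with IgG by 0.38. PCNA, the sliding clamp, fell by 0.40 (adjusted p = 1.2e-07), and UHRF1, which guides maintenance methylation to new DNA, by 1.16 (adjusted p = 1.78e-11), from 23.2 and 23.4 CPM at 12 h to 11 and 9.79 CPM at 24 h. Of 54 replication genes, 39 fell and none rose with anti-M8nAb, 14 fell and 1 rose with IgG, and the medians were -0.31 and -0.11. The difference was called on the side of IgG for 23 of the 54 and on the side of the block for none. Of 42 repair and Fanconi genes 20 fell with anti-M8nAb (median -0.195), and 8 fell and 1 rose with IgG (median -0.144). The difference was called for 7 of them on the side of IgG and 1 on the side of the block. XRCC2, a factor of recombination repair, went from 47.8 and 44.1 CPM at 12 h to 19.7 and 15 CPM at 24 h with anti-M8nAb (log2 change -1.41, adjusted p = 3.66e-15). E2F1, the factor that switches on S phase genes, fell by 0.67 (adjusted p = 1.25e-07), CCND3, a D-type cyclin, rose by 0.71 (adjusted p = 4.71e-07), and CCND1 gave -0.06 (adjusted p = 0.54; overlap 10.4%).

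Mitotic genes were mixed. AURKA, a spindle kinase, was at 54.2 and 53.1 CPM at 12 h and 83 and 87.3 CPM at 24 h (log2 change 0.67, adjusted p = 1.02e-10) and at 92.9 and 93.9 CPM at 12 h and 100.4 and 97 CPM at 24 h with IgG. All 4 blocked libraries lay below the IgG libraries, those at 12 h furthest. CENPF, a kinetochore protein, fell from 192 and 199 CPM at 12 h to 148 and 134 CPM at 24 h (log2 change -0.47, adjusted p = 1.7e-08), and CCNB1, the mitotic cyclin, gave -0.13 (adjusted p = 0.0629). CCNB1 passed as lower without the first anti-M8nAb library at 24 h (adjusted p = 0.0457) or either IgG library at 24 h (adjusted p = 0.0361 and 0.0362). Of 67 genes 22 rose and 15 fell with anti-M8nAb, and 3 rose and 11 fell with IgG, with the difference called for 10 in favour of the block and 2 in favour of IgG.

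Ribosome biogenesis genes fell, whereas ribosomal protein genes hardly moved. NOP56, a core protein of box C/D small nucleolar particles, was at 409 and 427 CPM at 12 h and 285 and 261 CPM at 24 h with anti-M8nAb (log2 change -0.61, SE 0.05, adjusted p = 2.14e-13) and at 423 and 444 CPM at 12 h and 386 and 384 CPM at 24 h with IgG. NCL, nucleolin, fell by 0.28 (adjusted p = 5.05e-06). Of 60 such genes 40 fell and 1 rose with anti-M8nAb (median -0.27), 21 fell with IgG (median -0.13), and the difference was called for 15 in favour of IgG and 1 in favour of the block. Of 79 cytosolic ribosomal protein genes 2 rose and 1 fell, with a range of log2 changes from -0.17 to 0.16, and RPLP0 gave 0.04 (adjusted p = 0.512). Leaving out the first anti-M8nAb library at 12 h raised the 2 to 10. EIF5, a translation initiation factor that helps to select the start codon, had the smallest p of all protein-coding genes that fell. It lies on chromosome 14 from 103333544 to 103345025 of GRCh38 and was at 304 and 331 CPM at 12 h and 105 and 80.1 CPM at 24 h with anti-M8nAb (log2 change -1.78, SE 0.07, adjusted p = 3.8e-24) and at 295 and 303 CPM at 12 h and 244 and 213 CPM at 24 h with IgG (log2 change -0.39, adjusted p = 6.49e-05). It fell in both courses, and deeper with the block (adjusted p for the difference = 1.24e-14). BCLAF1, a nuclear protein tied to splicing, was at 263 and 248 CPM at 12 h and 135 and 132 CPM at 24 h (log2 change -0.94, adjusted p = 3.3e-18) and did not pass with IgG (-0.12, adjusted p = 0.146).

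**Figure D4:**
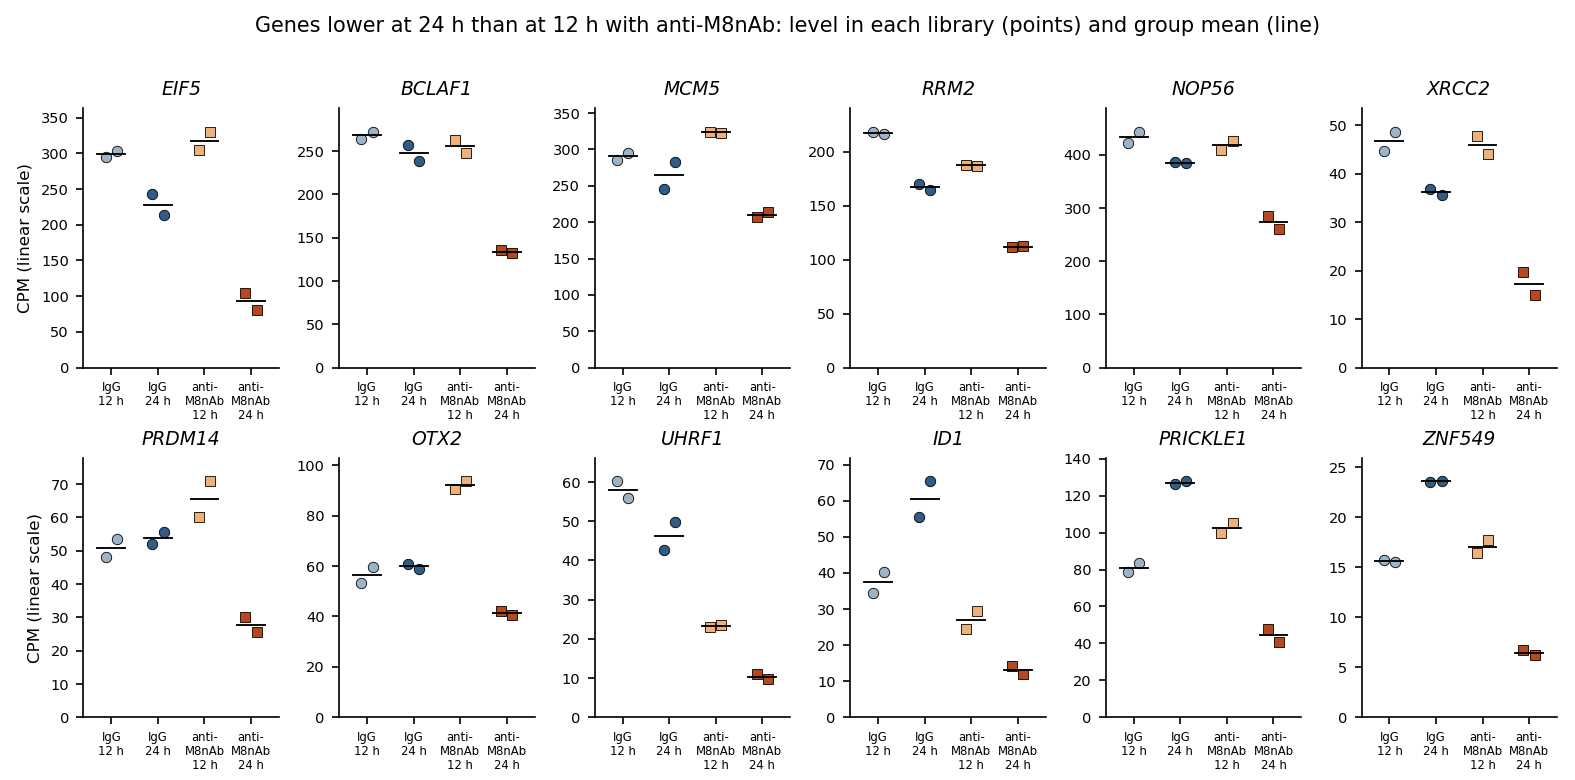
The level of 12 genes is plotted in CPM on linear axes that start at 0, with 1 point per library and a line at the mean of the 2 libraries of each group. In every panel the anti-M8nAb libraries at 24 h are the lowest of the 8, and in ID1, PRICKLE1 and ZNF549 the IgG libraries rose over the same interval.

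Factors of the pluripotent state fell unevenly. PRDM14, a repressor that guards naive and germ cell programmes, was at 60.02 and 70.8 CPM at 12 h and 30.1 and 25.6 CPM at 24 h with anti-M8nAb (log2 change -1.23, SE 0.09, adjusted p = 5.48e-15) and at 48.2 and 53.5 CPM at 12 h and 52.1 and 55.7 CPM at 24 h with IgG. OTX2, a homeobox factor of the primed state and the anterior embryo, was at 90.5 and 93.6 CPM at 12 h and 42.2 and 40.6 CPM at 24 h (log2 change -1.15, adjusted p = 9.35e-17) and at 53.3 and 59.6 CPM at 12 h and 60.7 and 59 CPM at 24 h with IgG. Both genes were higher in the blocked libraries than in any IgG library at 12 h and lower than in any at 24 h. NANOG fell by 0.48 (adjusted p = 3.23e-08) from 128 and 122 CPM at 12 h to 90.1 and 89 CPM at 24 h, while with IgG it stayed at 105 and 104 CPM at 12 h and 108 and 105 CPM at 24 h. SOX2 fell by 0.30 (adjusted p = 4.02e-05), L1TD1, an RNA-binding protein of hESCs, by 0.75 (adjusted p = 8.47e-18) and DNMT3B, the de novo methyltransferase, by 0.38 (adjusted p = 3.23e-09); L1TD1 and DNMT3B also fell with IgG, by 0.34 and 0.36. POU5F1 was at 1559 and 1506 CPM at 12 h and 1570 and 1562 CPM at 24 h, with no call (log2 change 0.03, adjusted p = 0.601). Of 36 pluripotency genes, 19 fell and 4 rose with anti-M8nAb, 10 fell and 3 rose with IgG. Between the courses, 10 differed on the side of IgG and 1 on the side of the block. Without the second anti-M8nAb library at 24 h, 2 passed as higher.

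In 164 of the 20165 genes tested the courses were called in opposite directions, 57 that rose with the block and fell with IgG and 107 the reverse. More genes were called in the same direction in both courses, 762 as higher and 687 as lower. ID1 (ENSG00000125968.9, chromosome 20, 31605283 to 31606515), a BMP-induced inhibitor of basic helix-loop-helix factors, was at 24.5 and 29.4 CPM at 12 h and 14.3 and 12 CPM at 24 h with anti-M8nAb (log2 change -1.04, SE 0.12, adjusted p = 9.97e-10) and at 34.4 and 40.3 CPM at 12 h and 55.5 and 65.4 CPM at 24 h with IgG (log2 change 0.69, adjusted p = 1.52e-06). The fall and the rise left the 2 treatments far apart at 24 h, with no overlap. ID3 did likewise, by -0.28 (adjusted p = 0.000426) and 0.58 (adjusted p = 1.99e-09) on the log2 scale. PRICKLE1, a planar cell polarity protein, was at 99.8 and 105 CPM at 12 h and 47.9 and 41 CPM at 24 h with anti-M8nAb (log2 change -1.21, adjusted p = 4.43e-18) and at 78.7 and 83.3 CPM at 12 h and 126 and 128 CPM at 24 h with IgG (log2 change 0.65, adjusted p = 3.01e-09; overlap 23.7%). ZIC5, a zinc finger factor, fell by 0.77 with the block (adjusted p = 1.38e-12) and rose by 0.39 with IgG (adjusted p = 2.55e-05). AXIN2, a feedback target of Wnt signalling, rose with IgG (0.71, adjusted p = 3.16e-05), and its courses differed (adjusted p = 3.43e-05). With the block it passed narrowly as lower (-0.34, adjusted p = 0.0475), and without any 1 of the 4 anti-M8nAb libraries its adjusted p was 0.0649 to 0.285, the highest without the second at 12 h. Without either IgG library at 12 h it was 0.0573 and 0.0572, and with the replicate number as a block 0.0535. Of 29 genes of BMP ligands, receptors and targets 7 rose and 5 fell with the block, the falls near the 15.7% of all genes. With IgG 6 of the 29 rose and 1 fell. In 4 of the 29 the difference favoured the block and in 5 IgG. As lower, 3 passed without the second anti-M8nAb library at 12 h and 2 without the second at 24 h. Of 40 Wnt genes 7 rose and 8 fell with the block, near the shares of all genes (16.1% and 15.7%). With IgG 9 of the 40 rose and 2 fell, and the difference was called for 1 in favour of the block and 8 in favour of IgG. As higher, 4 passed without the second anti-M8nAb library at 12 h, and as lower, 5 without the second at 24 h.

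Zinc finger genes with a ZNF number fell more often than they rose with the block and rose more often than they fell with IgG. This class was picked after its values had been seen. Of 425 tested, 188 fell and 28 rose with anti-M8nAb, 19 fell and 59 rose with IgG, and the median log2 changes were -0.31 and 0.10. The difference was called in favour of IgG for 147 and in favour of the block for 8. Their summed level was 10878 and 10699 CPM at 12 h and 9384 and 9193 CPM at 24 h with anti-M8nAb, and 10081 and 10161 then 10754 and 10475 CPM with IgG. Of the 193 protein-coding genes that fell at least 2-fold, 35 were of this class, against 2 of the 516 that rose. The class made up 425 of the 14563 protein-coding genes tested. ZNF549 was at 16.4 and 17.7 CPM at 12 h and 6.72 and 6.24 CPM at 24 h with anti-M8nAb (log2 change -1.40, adjusted p = 1.55e-11) and at 15.7 and 15.5 CPM at 12 h and 23.6 and 23.6 CPM at 24 h with IgG (log2 change 0.60, adjusted p = 0.000284). ZNF239 fell from 13.1 and 13.2 CPM at 12 h to 3.21 and 3.46 CPM at 24 h (log2 change -1.98, adjusted p = 6.02e-13), and ZNF398 fell by 0.62 (adjusted p = 4.3e-10) and rose with IgG by 0.44 (adjusted p = 2.86e-06). With any 1 anti-M8nAb library left out, 141 to 170 of the class passed as lower and 13 to 21 as higher, with 13 higher without the second at 24 h and 16 without the second at 12 h.

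Mitochondrially encoded transcripts fell with the block, 12 of 15 in the test and all 15 in sign, with a median of -0.23 against -0.01 with IgG, where 1 rose and 1 fell. MT-ND1, a subunit of complex I, was at 903 and 982 CPM at 12 h and 728 and 714 CPM at 24 h with anti-M8nAb (log2 change -0.39, SE 0.04, adjusted p = 2.44e-09) and at 1071 and 1053 CPM at 12 h and 1100 and 1140 CPM at 24 h with IgG. MT-ND6, encoded on the other strand from the rest of the mitochondrial messengers, had 12 h blocked libraries that differed from each other, 649 and 434 CPM at 12 h and 356 and 369.8 CPM at 24 h (log2 change -0.58, adjusted p = 1.54e-07). MT-CO1, of complex IV, gave -0.07 (adjusted p = 0.173). Nuclear genes of oxidative phosphorylation moved less, with 16 of 73 lower and none higher, with 10 lower without the second anti-M8nAb library at 12 h and 7 without the first at 24 h.

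Processed pseudogenes, intronless copies of messengers, passed more often as lower than as higher at 24 h with the block, 204 against 13 of 801 tested, and 151 of them fell at least 2-fold. Without the second anti-M8nAb library at 12 h, in which their total was highest, 85 of 948 fell and 11 rose. The median moved from -0.39 to -0.20. CSNK2A3, an intronless copy of the gene for casein kinase 2 alpha, shows the pattern within a protein-coding gene, at 1.32 and 6.51 CPM at 12 h and 0.633 and 1.12 CPM at 24 h (log2 change -2.15, adjusted p = 8.72e-05; 41% of its exons overlap a gene on the other strand). That single library was high and the other 3 were not, and without it the log2 change was -0.59 (adjusted p = 0.445). The part of this library in the result beyond these counts was not tested.

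**Figure D5:**
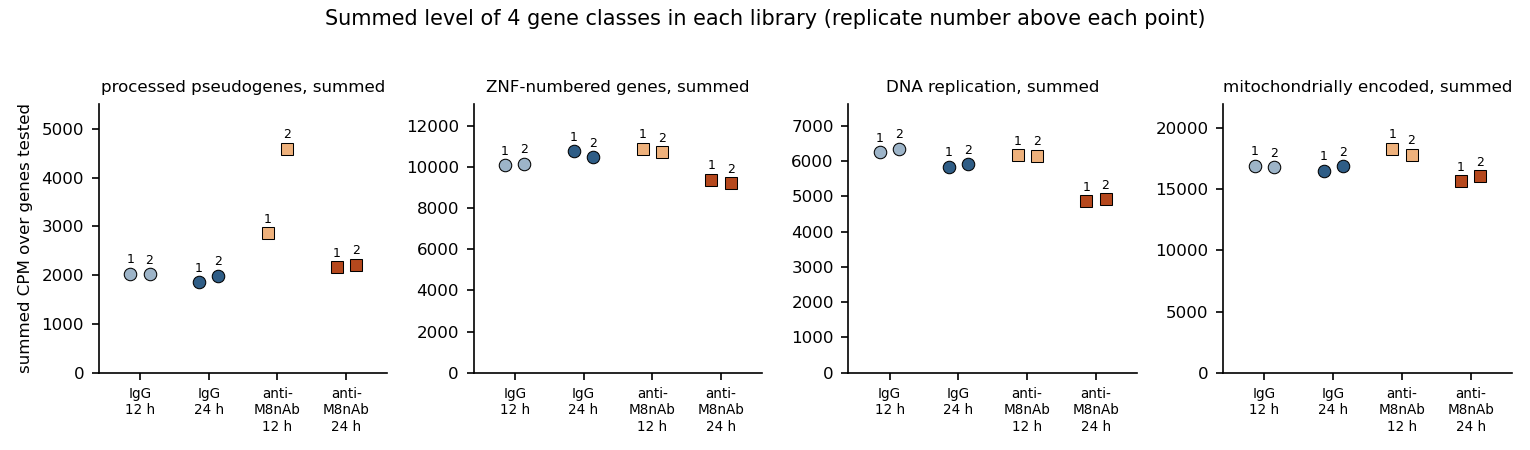
The summed CPM of the tested genes of 4 classes is plotted for each library on linear axes that start at 0, with the replicate number above the point. Replicate 2 at 12 h of anti-M8nAb stands alone in processed pseudogenes, at 4594 CPM against 2862 CPM in replicate 1, while in the other 3 classes the replicates of each group lie close together and the 24 h anti-M8nAb libraries are the lowest.

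Metabolic lists moved partly. Over all genes tested, 16.1% rose and 15.7% fell with the block. Of 37 genes of cholesterol and fatty acid synthesis, 16 fell and 5 rose with the block and 10 fell with IgG, with the difference called for 4 and 5 in favour of the block and of IgG. The 5 became 3 without the first anti-M8nAb library at 12 h or either at 24 h. IDI1, the isopentenyl diphosphate isomerase, was at 562 and 560.4 CPM at 12 h and 378 and 382 CPM at 24 h with anti-M8nAb (log2 change -0.56, adjusted p = 3.5e-12; overlap 15%) and at 326 and 308 CPM at 12 h and 274 and 245 CPM at 24 h with IgG. Among genes of glycolysis and the hypoxia response, the glucose transporter SLC2A1 rose by 0.55 (adjusted p = 2.54e-12). The angiogenic factor VEGFA went from 18.4 and 16.2 CPM at 12 h to 34 and 33.4 CPM at 24 h (log2 change 0.96, adjusted p = 4.25e-10). Of the 43 genes of that list, 17 rose and 7 fell with the block, the falls near the share of all genes. With IgG 8 of the 43 rose and 3 fell. With any 1 anti-M8nAb library left out, 3 or 4 of them passed as lower. Antioxidant genes under NRF2 gave 9 higher and 3 lower of 50, below the share of all genes in the lower direction and near it in the higher. Of 31 genes of apoptosis 12 rose and 5 fell, against 6 and 0 with IgG. For 4 on each side the courses differed. Endocytosis genes rose in 13 of 41 and fell in 5 with the block, the falls not above the share of all genes. With IgG 5 of the 41 rose and 4 fell. Their median log2 change with the block was 0.077. It was 0.128 without the second anti-M8nAb library at 12 h and 0.094 without the second at 24 h. Factors of neuroectoderm rose in 6 and fell in 9 of 30 with the block, and rose in 4 and fell in 2 with IgG. Of the 13 factors of mesendoderm tested, 4 rose and 2 fell with the block, the falls near the share of all genes. With IgG 3 of the 13 rose and 1 fell. The mesendoderm median with the block was 0.433. With 1 anti-M8nAb library left out it ranged from 0.017, without the first at 12 h, to 0.610, without the second at 12 h.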

How the data were processed

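RNA from 8 libraries was sequenced. Per the labels and the study's methods, the authors used Trimmomatic for trimming, 2-pass STAR for alignment (GRCh38.p14), Picard to drop duplicates and HTSeq to count reads by gene. The submitters' processing notes also name FastQC 0.11.9 and GATK. The deposited tables hold these raw counts and FPKM values that the authors derived from them, for 62086 Ensembl genes, and all identifiers matched GENCODE. Removing duplicates caps the counts of the most abundant and the shortest transcripts. Neither table's 4 further columns match a sample, and they were not used. Lines without a gene name were left out; 1000 of them held 0.192 to 0.21% of a library's counts, and the largest of the other 5, at the end of the table, held 49.3 to 50.2%. The remaining gene counts were 21010400 to 21792716 per library.

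Groups followed the labels. Counts were tested in edgeR 4.0.16 (R 4.3.3) with a mean per group over all 8 libraries, TMM scaling, filterByExpr (20165 genes tested), the two-sided quasi-likelihood F test and Benjamini-Hochberg adjustment, called under 0.05. The fit leaves 4 residual degrees of freedom. CPM use the TMM-scaled library size. Fitted fold changes of genes near 0 depend on the prior count. The design was tested on simulated data. Alternatives were DESeq2 1.42.0, its size factors, other filters, protein-coding genes alone, limma 3.58.1 on log2(FPKM + 1) or log2(FPKM + 0.1), the replicate block, single treatments and each library left out. Promoters came from RefSeq (GRCh38.p14), and overlaps with genes on the other strand from GENCODE.

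The gene lists and named genes were chosen with earlier results of these data known. Named genes are protein-coding: per direction of the anti-M8nAb course, the 12 with the largest change (adjusted p under 0.05, mean of at least 2 CPM, times not overlapping) and the 8 with the smallest p; the 6 per side that differ between courses at the smallest p; key members of each list and up to 5 others by p; genes of the axis the study followed (MFGE8, ITGAV, ITGB5, AKT1, GSK3B, CCND1 and DNM1); and the 5 with the largest difference among those called in opposite directions. Of these 331 genes, those that best show each group are in the text. MT1A, MT1M, HSP90B1, PDIA6 and CRELD2 lie outside the rule, and they and the ZNF class were chosen after their values were seen. The other genes of the rule, and lists without a count in the text, are not reported here.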

Additional observations from a re-analysis of the deposited data

Results flagged for a closer look

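For the genes below, the change from 12 to 24 h with anti-M8nAb differed from the change with IgG in the test of that difference (edgeR's quasi-likelihood F test, Benjamini-Hochberg adjusted over all genes tested). The number after each gene is the anti-M8nAb log2 fold change minus the IgG log2 fold change, so a positive value lies on the side of the block. They were singled out because the 2 courses differed, and no explanation was tested for any of them.

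Among metal genes the difference was positive for MT1H (3.49), MT1E (2.97), MT1G (2.82), MT1X (2.50), MT2A (2.23), MT1M (2.04), MT1F (1.45) and SLC30A1 (0.47), and negative for MTF1 (-0.71). AP-1 and immediate-early factors differed in EGR1 (2.41), JUN (1.73), FOSL2 (1.53), ATF3 (1.16), FOS (0.96), NR4A1 (0.92) and JUND (0.66). The inhibitors of ERK signalling gave DUSP8 (2.02), DUSP6 (0.31) and SPRY4 (-0.27), the last below 0.

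Cytoskeleton and YAP target genes differed in ANKRD1 (3.77), FLNC (2.20), RHOB (1.50), CNN1 (1.45), CCN2 (1.38), CCN1 (1.21), TAGLN (1.11), VCL (0.31), ACTB (0.20) and, on the side of IgG, AMOTL2 (-0.50). Mesenchymal, adhesion and surface genes did so in ANXA1 (3.20), ITGA5 (1.05), VIM (1.02), THBS1 (0.64) and ITGAV (0.42). The secreted factors NPPB and APLN and the receptor GFRA1 gave NPPB (5.01), APLN (1.81) and GFRA1 (1.02), and NPPB had the widest gap of the genes named here.

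Stress genes of the ER and the ATF4 pathway were further up with the block in GDF15 (2.47), STC2 (1.73), CHAC1 (1.49), DDIT3 (1.28), SLC7A11 (1.08), SESN2 (1.05), HSPA5 (0.92), HERPUD1 (0.68), HSP90B1 (0.23) and ATF4 (0.23), and TRIB3 (-0.59) went the other way. HSPA8, which fell in both courses, gave HSPA8 (0.21). The cell cycle brakes and cyclins differed in CDKN1A (1.43), WEE1 (1.08), CCND3 (0.66), AURKA (0.59) and CCND1 (-0.34), and the metabolic genes in VEGFA (0.81), SLC2A1 (0.45) and IDI1 (-0.27).

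On the side of IgG, replication and repair genes were XRCC2 (-1.04), UHRF1 (-0.84), E2F1 (-0.66), MCM5 (-0.48), PCNA (-0.37), RRM2 (-0.36) and CENPF (-0.34). Genes of the ribosome, translation and RNA were EIF5 (-1.39), BCLAF1 (-0.82) and NOP56 (-0.44), and mitochondrial transcripts were MT-ND6 (-0.84) and MT-ND1 (-0.46). Pluripotency and patterning factors were PRDM14 (-1.32), OTX2 (-1.24), ZIC5 (-1.16), NANOG (-0.50) and L1TD1 (-0.41). Genes of BMP and Wnt signalling and polarity were PRICKLE1 (-1.85), ID1 (-1.73), AXIN2 (-1.05) and ID3 (-0.86). The zinc finger genes were ZNF549 (-1.99), ZNF239 (-1.63) and ZNF398 (-1.06). CSNK2A3, whose call within the anti-M8nAb course rested on 1 library, gave CSNK2A3 (-2.01).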

How the results depend on the processing

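No alternative turned the direction of a call. Of the calls of the anti-M8nAb course, 42.6 to 99.3% were called again under each alternative, and 0 with the opposite sign. Fits on FPKM called fewer genes. With limma on log2(FPKM + 1) over all genes, 1673 rose and 1444 fell with anti-M8nAb, 165 and 81 with IgG, the difference was called for 210 and 244, and 129 and 55 moved at least 2-fold with anti-M8nAb. With the mean FPKM held to 0.5 or more, the counts were 529 and 237 with IgG, 368 and 551 for the difference and 141 and 93 at 2-fold for log2(FPKM + 1), and 473 and 210, 351 and 545, and 346 and 261 for log2(FPKM + 0.1). A pseudocount shrinks the fold of low genes. Without a filter on low counts, 677 rose and 739 fell with IgG and the difference was called for 561 and 667. DESeq2 called 934 genes as higher with IgG. With protein-coding genes alone, 206 fell at least 2-fold with anti-M8nAb. Except for these shifts, the cause of which was not tested, the counts over all genes stayed within 1.5 times the reported ones under the alternatives run on all 8 libraries or on 1 treatment. Counts of 4 or more list members called with anti-M8nAb moved further in places. With limma on log2(FPKM + 1), 11 repair genes and 4 neuroectoderm factors passed as lower, as did 3 genes each of the ATF4 and glycolysis lists, 1 each of endocytosis and matrix and 119 pseudogenes, and 2 cholesterol, 4 BMP and 14 ZNF genes, 1 mesendoderm factor and 23 pseudogenes as higher. With log2(FPKM + 0.1) these counts were the same but for 12 repair genes and 114 pseudogenes lower, pseudogenes within 1.5 times as higher, and 4 Wnt genes higher. Over all genes, limma called as lower 3 mitochondrial transcripts, 22 ribosome biogenesis, 9 repair, 12 pluripotency, 8 cholesterol, 8 mitotic, 7 oxidative phosphorylation and 94 ZNF genes, 76 pseudogenes, 4 neuroectoderm factors, 3 genes each of the ATF4, apoptosis, BMP and Wnt lists, 2 of glycolysis, 1 each of cell cycle inhibitors and matrix and 0 of endocytosis. As higher it called 5 phosphatidylserine, 4 ERK inhibitor, 12 integrin, 17 matrix, 11 glycolysis, 8 endocytosis, 4 Wnt, 3 heat shock and 9 ZNF genes, 52 pseudogenes and 2 genes each of the cholesterol, pluripotency and mesendoderm lists. DESeq2 called 132 pseudogenes and 2 matrix genes as lower and 4 pseudogenes and 1 mesendoderm factor as higher. Without a filter, 3 heat shock, 3 cholesterol and 16 ZNF genes, 8 pseudogenes and 2 mesendoderm factors passed as higher and 1 matrix gene as lower, and a mean of at least 1 CPM left 2 mesendoderm factors.

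With 1 library left out, 2373 to 3242 genes rose and 2236 to 3335 fell with anti-M8nAb, 552 to 1574 and 376 to 1385 with IgG, the difference was called for 625 to 1052 and 827 to 1177, and 584 to 693 and 356 to 520 moved at least 2-fold with anti-M8nAb. A lone library in a group is then taken to vary like the other groups. The replicate number as a block gave 3198 and 3132 calls with anti-M8nAb, 1386 and 1302 with IgG, 1147 and 1287 for the difference, and 696 and 472 at 2-fold; in the anti-M8nAb libraries alone it gave 3269 and 3256, and 694 and 444 at 2-fold. Libraries that share a number did not deviate together (correlations of -0.0372 to 0.0268). The labels do not say whether a number marks a shared culture, so whether the samples are paired stays unknown. Of the genes named, 18 changed their call under at least 1 alternative, among them AXIN2 and MT1A under more than the rest. Depth was alike in all libraries, and with 2 per group a call below 1 CPM, such as that of MT1A, can turn on a single library.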
